A study of Rattus norvegicus with 24 samples.

Results

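The carcinomas described here arose in female Sprague-Dawley rats given 2 Gy of whole-body γ rays at 7 weeks of age, after puberty (IR-7W). The 7 IR-7W tumors were set against 3 normal mammary glands of non-irradiated females of the same strain, which makes 10 of the 24 arrays of the study. All rats had received a diet rich in corn oil, which promotes mammary tumors. IR-7W tumors 1 and 2 came from 1 rat, so the tumors represent 6 rats, and the glands came from 3. Of the remaining arrays, 7 held carcinomas that followed the same dose given before puberty, at 3 weeks (IR-3W), and 7 held carcinomas of rats that had not been irradiated (spontaneous).

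CpG islands are short stretches rich in CpG dinucleotides that often overlie the promoters of genes. Most of them carry little methylation in normal tissue, and dense methylation at a promoter island is associated with a silent gene. In carcinomas, some islands that are unmethylated in the normal tissue become methylated while other sequences lose methylation.

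On each array Cy5 labeled the DNA of a sample pulled down with a methyl-CpG binding domain protein, and Cy3 labeled a part of that DNA left without enrichment. A higher log2 ratio of Cy5 over Cy3 therefore reads as more methylated DNA at the probe. Each array's ratios were centered on their median, so a loss or gain shared by all probes cannot be seen, and 0 stands for the median probe of that array. Of 93024 probes, the 89403 on the 20 autosomes of the rn4 assembly were used. The probes were 45 to 60 bases long. Neighboring probes at most 1000 bp apart were joined into runs, and the 11323 runs with 4 or more probes held 83283 probes. A run was given the median of its probes. Gene names of the probes and an rn4 annotation were not used here, so probes and runs are given by their rn4 position, and island genes are not named.

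On the glands' arrays 86.3% to 95.5% of the probes had a Cy5 signal well above background, and on the IR-7W arrays 77.8% to 90.3% did. The number of arrays limits the precision. Correlations of log2 ratios were 0.870 to 0.935 between pairs of IR-7W tumors and 0.911 to 0.953 between pairs of glands, and 0.765 to 0.912 between a tumor and a gland. The glands had been scanned on 1 day and the IR-7W tumors on 5 other days, and 0 slides were shared, so scan day and tissue cannot be told apart. IR-7W tumor 3 stood apart on the X chromosome, which is not used below: the median X probe had a log2 ratio of 0.21 there and 2.38 to 3.17 in the other 6 tumors. In bulk tissue, a smaller share of methylated cells and less methylation per cell cannot be told apart, and the epithelial share of the glands is not known.

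Many autosomal probes differed between IR-7W tumors and glands, about equally many in each direction, and in the median-centered ratios the higher probes moved further. Of 89403 probes, 19898 (22.3%) passed an adjusted p of 0.05 (limma with Benjamini-Hochberg adjustment over all autosomal probes). The 10172 higher probes (11.4%) had a median difference of 1.07 on the log2 scale, and the 9726 lower ones (10.9%) had one of -0.75. Called probes with a difference over 1 numbered 7341 (8.21%), of which 5672 were higher and 1669 lower. After normexp background correction 389 higher and 779 lower probes differed by more than 1, and after loess 158 and 30 did. With quantile normalization 4299 higher and 4128 lower probes did. The excess of higher probes past 1 thus turned with normexp and was small with quantile normalization. Beyond a difference of 2 in the median-centered ratios there were 482 higher probes and 1 lower probe. The median log2 ratio of the higher probes was -0.21 in the glands and 0.89 in IR-7W. That of the lower probes was 0.44 in the glands and -0.32 in IR-7W. The higher share of the calls was 51.1%, and it was 24.1% after normexp and 41.0% after quantile normalization. The study scored each probe by its LogOdds, the log odds of being methylated rather than unmethylated, which was rebuilt here from the distribution of each array. The rebuilt score used no classes of melting temperature, so its values are not those of the study. On that score 99.1% of the calls were higher, and the median probe was itself 2.82 higher in IR-7W. This direction is opposite to the general loss that the study describes on its own score. The study's comparison pooled the IR-3W, IR-7W and spontaneous tumors against the glands, while only IR-7W tumors were compared here. On the rebuilt score gland 2 was more than 1 below both other glands at 68746 probes, and its part in the direction was not tested. The balance of the directions thus changed with the scaling. Without gland 2 the number of called probes was 8919 and without gland 3 it was 8666. With slide as a random block it was 13954. With scan day as a block in a fit of all 24 arrays, a contrast that rests on the 1 spontaneous tumor scanned on the day of the glands, it was 25.

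**Figure D1:**
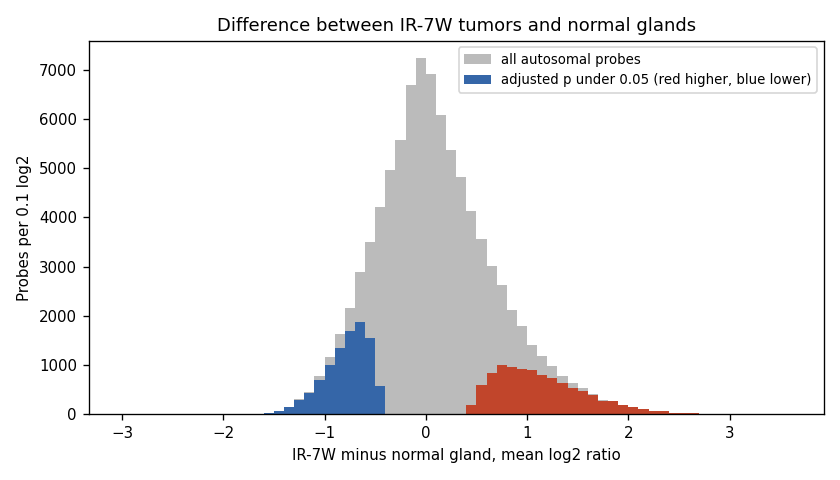
Number of autosomal probes (y axis, per bin of 0.1) by the difference of mean log2 ratios, IR-7W minus normal gland (x axis). Grey bars count all probes, and red and blue bars count probes with an adjusted p under 0.05 that were higher or lower in IR-7W. The red bars reach past 2 while the blue bars thin out near -1.5.

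All 7 IR-7W tumors lay above all 3 glands at 9662 probes (10.8% of all) and below them at 11292 (12.6%). With the adjusted p also asked for, 8155 higher and 8871 lower probes remained. Of all 10172 probes called higher, 409 had a Cy5 signal that was not well above background on any gland array, so their difference is only a bound. The same held on the IR-7W arrays for 64 of all 9726 probes called lower.

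Runs differed in both directions in about equal numbers. Of 11323 runs, 2468 (21.8%) differed, 1205 of them higher (10.6%) and 1263 lower (11.2%), and 557 (4.92%) differed by more than 1. The higher and lower runs numbered 302 and 1037 with normexp, 269 and 198 with loess, 1196 and 1733 with quantile normalization, and 7449 and 11 on the rebuilt LogOdds. Called runs numbered 1260 without gland 2, 1184 without gland 3 and 0 with a block for scan day. All tumors lay above all glands in 1164 runs (10.3%) and below them in 1425 (12.6%). In 201 runs every probe was called higher and in 10 every probe was called lower, but with normexp these were 23 and 31. They were 1 and 0 with loess, 36 and 12 without gland 2, and 70 and 2 without gland 3. Of 4567 runs with 2 or more called probes, all called probes were higher in 1462 and lower in 1753, and 1352 held both. A further 2732 runs had 1 called probe, and 4024 had none. Without gland 2 the runs with 2 or more called probes numbered 1886, and without gland 3 they numbered 1774. By count, with no test, long runs were more often higher: of 422 runs with 16 or more probes, 93 (22.0%) were higher and 31 (7.35%) lower. Among 4157 runs of 4 to 5 probes, 438 (10.5%) were higher and 447 (10.8%) were lower.

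The runs with the largest gains had mean log2 ratios of -0.73 to 0.42 in the glands, near or below the array median, and tumors above it. They are named H1 to H10 in order of the difference over probes that were well above background and not saturated on all 10 arrays, and the values below are the medians of these probes. Runs were named only where the groups did not overlap, so the gap between the groups is part of the choice. The fitted differences with their standard errors (SE) use all probes of the run.

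Run H1, at chr1:209181706-209183256 with 8 probes, had log2 ratios of -0.60, -0.28 and -0.47 in the glands. In IR-7W it was 1.34 at the lowest, 2.46 at the median and 3.38 at the highest. Tumor 7 was lowest and tumor 6 highest. The fitted difference was 2.75 (SE 0.30, adjusted p = 0.000737). The gain ended inside the run. The first 7 probes differed by 1.93 to 3.19, while the last probe, the only one in the final part of the run, was at -0.55 in the glands and -0.52 in IR-7W (adjusted p = 0.895).

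Run H2, at chr14:78188035-78188510, was at -0.19, -0.44 and -0.49 in the glands. The 7 tumors ran from 1.68 over a median of 2.21 to 3.09. Over all 7 probes of the run the difference was 1.86 (SE 0.12, adjusted p = 3.2e-05).

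Run H6, at chr4:80525137-80526583, was at 0.46, -0.26 and 0.13 in the glands. It reached 1.58 at the lowest, 2.39 at the median and 3.36 at the highest in IR-7W, with a fitted difference of 2.45 (SE 0.36, adjusted p = 0.00193). Tumor 7 was again lowest and tumor 6 highest. The island lies in a wider region of gain, described further on.

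Run H9, at chr5:120337425-120337826, broke this order of the tumors. The glands were at -0.15, -0.22 and -0.73. The tumors ran from 0.95 in tumor 6 to 2.51 in tumor 1, with a median of 2.05. Tumor 6, the highest in 8 of the 10 gained runs, was here the lowest. The difference was 2.01 (SE 0.31, adjusted p = 0.0022).

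Run H10, at chr1:157281033-157281507, was the most variable of the gained runs. Its glands lay between -0.48 and -0.29, and its tumors between 0.42 and 3.35 with an SD of 0.93, against an SD of 0.10 in the glands. The difference was 2.20 (SE 0.47, adjusted p = 0.00829).

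The remaining gained runs were H3 (chr3:156080215-156080711), H4 (chr1:259904419-259905737), H5 (chr7:16267353-16267998), H7 (chr7:10734171-10734568) and H8 (chr10:56378973-56379645). Their differences ran from 2.11 to 2.44 with adjusted p-values of 0.000737 to 0.00264. All probes of H3, H5, H7 and H8 were called higher. Tumor 6 was the highest of the 7 in H3, H4, H5 and H8, and tumor 2 was in H7. The sizes depended on the background correction. The fitted differences of H1 to H10 ran from 1.86 to 2.75, but from 0.67 to 1.35 after normexp, where H10 lost the threshold (adjusted p = 0.0682), and from 0.48 to 1.12 after loess, where H2 did (adjusted p = 0.105). With a block for scan day the differences ran from 1.19 to 2.53, but 0 of the 10 passed (adjusted p of 0.324 to 0.600).

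**Figure D2:**
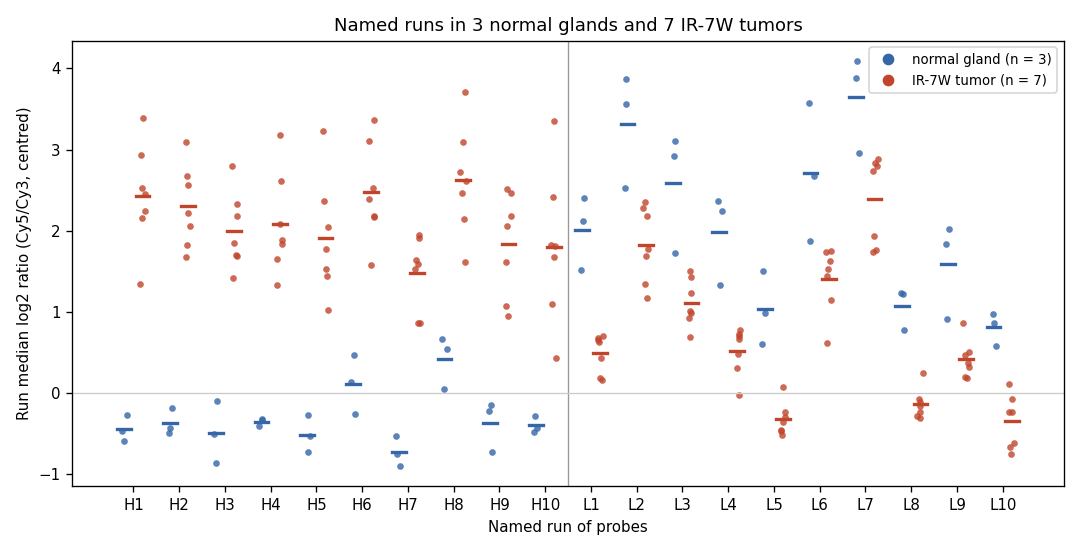
Median log2 ratio of each named run (y axis) in the 3 normal glands (blue) and the 7 IR-7W tumors (red), 1 point per array with the group mean as a bar. In H1 to H10 every tumor lies above every gland, and in L1 to L10 every tumor lies below every gland, as the rule for naming required.

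The runs with the largest losses had mean log2 ratios of 0.81 to 3.64 in the glands. The gland values took part in the choice of the runs, and ratios of different probes are not amounts of methylation on 1 scale, so these levels are a description. In several of the lost runs the tumors stayed above the array median. Run L1, at chr1:207205875-207206779, was at 2.12, 1.51 and 2.40 in the glands. In IR-7W it lay between 0.16 and 0.70, with a median of 0.63. The 7 tumors were closer to one another (SD 0.23) than the 3 glands were (SD 0.46). The difference was -1.52 (SE 0.19, adjusted p = 0.00114), and all 5 probes were called lower.

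Run L2, at chr6:136199857-136200515, was at 3.56, 2.52 and 3.87 in the glands. The tumors lay at 1.17 at the lowest, 1.77 at the median and 2.36 at the highest, still above the array median. The difference was -1.49 (SE 0.32, adjusted p = 0.00826). Tumor 6, the lowest here, had a median Cy3 signal of -0.27 on the log2 scale over chromosome 6. This value is relative to its whole array and to the mean of the glands, which themselves lay between -0.0091 and 0.0090. The part of the Cy3 signal in the ratio was not tested.

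Run L3, at chr7:114746998-114747515, had glands at 2.92, 1.73 and 3.1 and tumors between 0.69 and 1.50. Run L4, at chr1:187510308-187510888, had glands at 2.37, 1.33 and 2.24 and tumors between -0.03 and 0.78. In L1 to L4, as in L6 (chr20:34906001-34906863), L7 (chr3:147120104-147120567) and L9 (chr1:82409664-82410131), gland 2 had the lowest value of the glands. Without gland 3 the adjusted p was 0.0529 for L2, 0.0908 for L6 and 0.107 for L7, and without gland 1 it was 0.0742 for L7. In a fit of all 24 arrays it was 0.0550 for L2, 0.103 for L6, 0.127 for L7 and 0.107 for L9.

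In runs L5, L8 and L10 the mean fell from above the array median in the glands to below it in IR-7W. Run L5, at chr11:32044542-32045783, was at 0.60, 0.99 and 1.51 in the glands. The tumors ran from -0.52 over a median of -0.36 to 0.07, below every gland. Run L8, at chr10:63017318-63018093, had glands at 0.77, 1.23 and 1.22 and tumors from -0.31 to 0.24. Run L10, at chr5:73256075-73256878, had glands at 0.58, 0.86 and 0.97 and tumors from -0.76 to 0.11. In all 3, tumor 6 kept the highest value of the 7. On the rebuilt LogOdds the adjusted p was 0.0617 for L8 and 0.226 for L10, and it was 0.0911 for L9. The fitted differences of L1 to L10 ran from -1.52 to -1.06. After normexp they ran from -1.67 to -0.72, and after loess from -0.79 to -0.32, where 6 of the 10 lost the threshold. With a block for scan day they ran from -2.69 to -0.86, but 0 of the 10 passed (adjusted p of 0.341 to 0.717).

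Outside these runs, and among probes well above background and unsaturated on all 10 arrays, the single probes with the largest gains were A_45_P06300520 (chr7:123571097-123571144), A_45_P08094841 (chr10:90293994-90294046) and A_45_P03681235 (chr4:80517388-80517447). They differed by 2.93 (SE 0.37), 2.84 (SE 0.30) and 2.83 (SE 0.35), with adjusted p-values from 0.00126 to 0.00194. Each had company: 12 of 17, 6 of 6 and 9 of 9 probes of their runs were called higher. Among the same probes the largest single losses were at A_45_P19694823 (chr5:143196542-143196586), A_45_P12309902 (chr20:46669364-46669408) and A_45_P05743193 (chr7:11283582-11283626). They differed by -1.93 (SE 0.61), -1.80 (SE 0.27) and -1.65 (SE 0.25), and only 3 of 8, 2 of 8 and 3 of 5 probes of their runs were called lower. After loess 4 of these 6 probes lost the threshold. The gain at A_45_P08094841 was then 1.17 (adjusted p = 0.110). The losses at A_45_P12309902, A_45_P19694823 and A_45_P05743193 were -0.72, -0.17 and -0.06 (adjusted p of 0.0688, 0.760 and 0.877). At A_45_P19694823 the groups overlapped. Tumor 6 was at 2.38, above gland 1 at 0.95, while the other 6 tumors lay between -0.88 and 0.21. The call (adjusted p = 0.0411) was lost in each fit that left out 1 array, except without gland 1 and without tumor 6.

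Gained runs also lay next to one another along the chromosomes, whereas lost runs seldom did. With a stretch taken as 4 or more consecutive runs called in the same direction and less than 100 kb apart, there were 12 stretches of higher runs and 0 of lower runs. With 3 or more consecutive runs there were 33 higher and 4 lower. This definition was set after the values had been seen, so the stretches are a description with no test. The 12 stretches held 62 runs and 502 probes, of which 389 were called higher and 0 lower. There were 0 stretches of either direction after normexp or loess correction and with a block for scan day, and there were 4 higher stretches without gland 2 and 4 without gland 3. With only probes above background on all 10 arrays there were 6 higher and 2 lower stretches.

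The longest by number of runs was stretch 2, at chr3:57271647-57312386, with 9 runs and 44 of 56 probes called higher. Its mean over runs was 0.73, 0.27 and 0.75 in the glands. The tumors ran from 1.70 in tumor 7 to 2.37 in tumor 2, with a median of 1.97, and they lay closer together (SD 0.22) than their distance from the glands of 1.41.

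Chromosome 7 held 3 stretches in close succession, at chr7:141698919-141730972, chr7:141745109-141775628 and chr7:141803620-141865822. They differed in level but all were higher in the tumors: the glands averaged 0.18, 0.98 and 1.05, and IR-7W averaged 1.26, 1.92 and 2.60. Tumor 6 was the highest tumor in each of the 3.

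The other stretches lay at chr2:25174575-25186903, chr4:80525137-80546948, chr5:120328661-120337826, chr6:9002627-9095466, chr8:96315202-96338136, chr12:15571104-15584200, chr16:82003544-82020363 and chr18:60467360-60553491. Their mean differences ran from 1.06 on chromosome 12 to 1.88 on chromosome 4. In all 12 stretches every tumor lay above every gland, which follows in part from how they were chosen. Tumor 6 was the highest in 7 of the 12. Tumor 3 was the lowest in 7 and tumor 7 in 4.

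**Figure D3:**
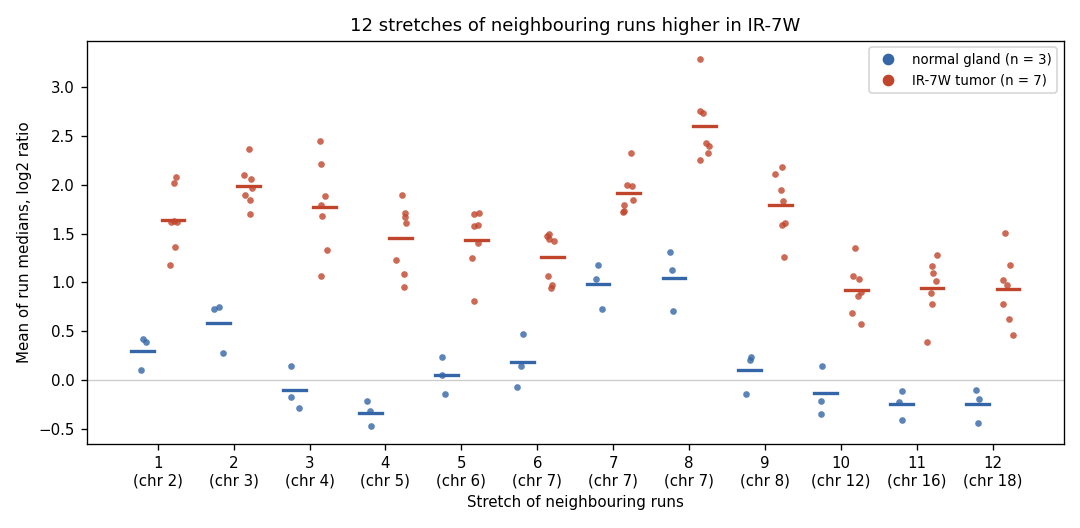
Mean of the run medians (y axis, log2 ratio) of the 12 stretches of neighboring higher runs, for each of the 3 normal glands (blue) and 7 IR-7W tumors (red), with the group mean as a bar. The gland values lie between -0.47 and 1.31, and the gap to the tumors differs between stretches.

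The region around run H6 on chromosome 4 showed how a gain was laid out. Within 100 kb of the center of H6 there were 22 runs with 176 probes, at chr4:80458417-80616982. Of these runs 13 were higher and 0 were lower, and 94 probes were called higher and 0 lower. Over all runs and all probes the higher shares were 10.6% and 11.4%. The window was placed on a run named for its gain, so its excess follows in part from that choice. The run centered 8549 bp before H6, chr4:80516816-80517807, had all 9 probes called higher and rose from -0.14 to 1.94 (difference 2.07, SE 0.30, adjusted p = 0.00179). It holds A_45_P03681235, one of the single probes named above.

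The gain was not continuous. Between that run and H6 lay a run of 8 probes at chr4:80521292-80522010 with glands at 0.02 and tumors at 0.35 (adjusted p = 0.101). Of 6 runs with a mean log2 ratio above 1 in the glands, 1 rose and 5 did not pass. Those at chr4:80468655-80469177 and chr4:80503631-80504861 stood at 2.15 and 1.54 in the glands and at 2.01 and 1.67 in the tumors (adjusted p of 0.767 and 0.825). The run at chr4:80472476-80472941, at 1.53 in the glands, rose to 3.01 (difference 1.48, SE 0.21, adjusted p = 0.00164). A run of 4 probes centered 23856 bp beyond H6 was at 0.60 in the glands and -0.12 in the tumors. It spread from -1.32 to 1.05 among the 7 and did not pass (adjusted p = 0.347).

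**Figure D4:**
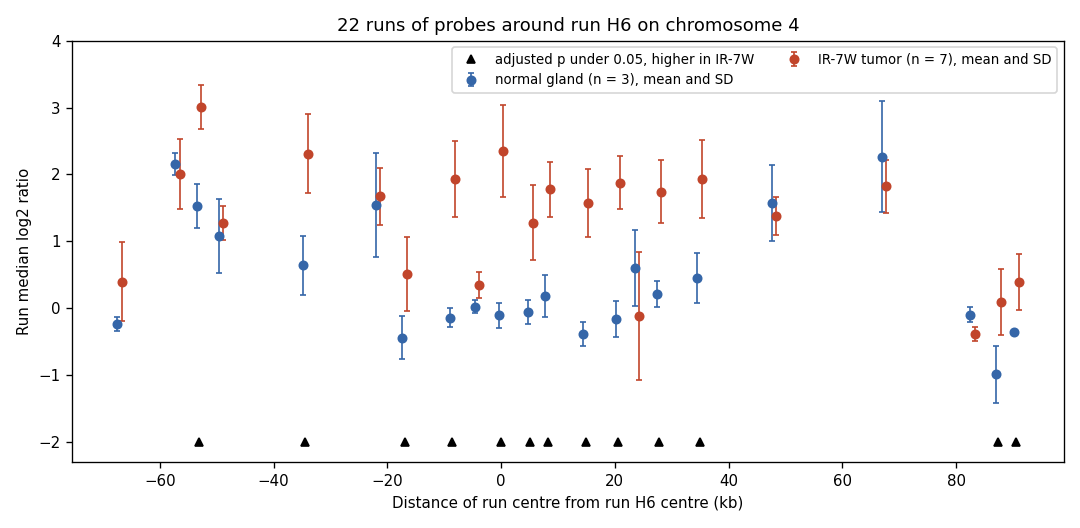
Median log2 ratio of the 22 runs (y axis, mean and SD) by the distance of the run's center from that of run H6 in kb (x axis), in normal glands (blue, n = 3) and IR-7W tumors (red, n = 7), with triangles under the runs at an adjusted p under 0.05. The 13 marked runs lie higher in IR-7W, and runs without a mark lie between them.

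Large departures from the glands differed in number between the 7 tumors, and few were common to all. Counting probes more than 1 above all 3 glands, tumor 7 had the fewest (3113) and tumor 6 the most (6679). Probes more than 1 below all 3 glands ran from 928 in tumor 6 to 2772 in tumor 4, so the tumor with the most gains had the fewest losses. All 7 tumors shared 505 of the gains and 4 of the losses. These counts depended on the scaling: they were 355 and 91 with quantile normalization, 4 and 2 with normexp and 0 and 0 with loess. With no minimum size, more probes had all tumors below all glands than above them, as given above. In exactly 1 tumor there were 7163 gains and 5166 losses. Tumors 6 (1593) and 3 (1397) held the most of these gains, and tumors 3 (1263) and 4 (1168) the most of these losses. Counted in the same way against the other 2 glands, gland 1 had 908 probes more than 1 above and 270 more than 1 below. Gland 2 had 964 and 2734, and gland 3 had 294 and 724.

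**Figure D5:**
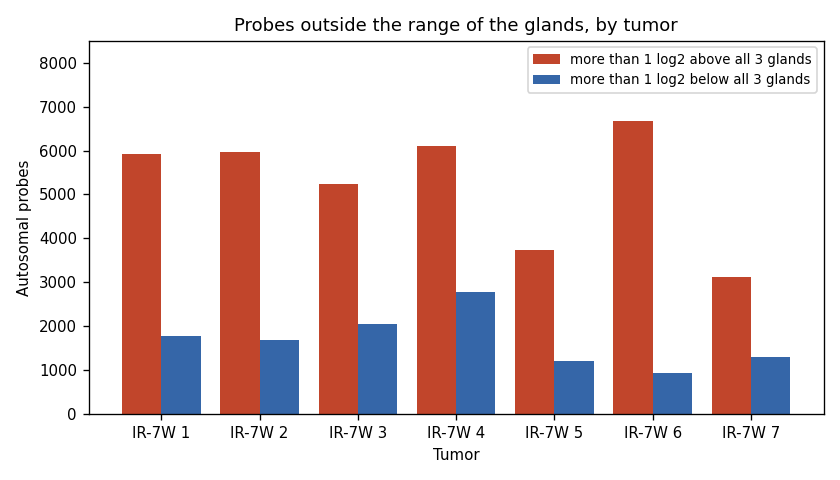
Number of autosomal probes (y axis) more than 1 above (red) or more than 1 below (blue) all 3 normal glands on the log2 scale, in each IR-7W tumor (x axis). Tumor 6 has the highest red bar (6679) and the lowest blue bar (928).

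The 2 tumors of the same rat were not more alike than others. The correlation of their deviations from the IR-7W mean was -0.36 across run medians, against -0.38 to 0.30 for the other pairs. Runs are not independent replicates, so this is a description. The highest value belonged to tumors 1 and 4, which shared neither rat nor slide nor scan day.

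By level, the change was uneven. Ranked by the mean of the spontaneous tumors, which are in neither group, the 29801 lowest probes of 89403 averaged -0.67 ± 0.06 (SD, n = 3) in the glands and -0.81 ± 0.06 (SD, n = 7) in IR-7W. The 29801 highest averaged 1.48 ± 0.30 (SD, n = 3) in the glands and 1.89 ± 0.08 (SD, n = 7) in IR-7W. The differences of -0.14, 0.04 and 0.41 for the low, middle and high class each had the smallest p that 3 glands and 7 tumors allow (two-sided exact permutation test, p = 0.00833). The spontaneous arrays are tumors too, and a change common to both tumor groups helps to place a probe in its class. Ranked instead on gland 1, 2 or 3 alone, with the other 2 glands compared, the low class was higher in IR-7W by 0.21, 0.28 and 0.24 (exact permutation p = 0.0278 each, the smallest possible), so the sign for the low class turns with the ranking. The sign of the other classes turned too. The high class was -0.19 ranked on gland 2 (exact permutation p = 0.0556) and -0.05 with normexp, and the middle class was -0.01 ranked on the mean of both groups and -0.12 with normexp. Split into 10 classes by the same ranking on spontaneous tumors, class 9 held the most gains. It averaged 1.20 in the glands and 1.86 in IR-7W with 36.3% of its probes called higher, while class 10, the top one, averaged 3.30 and 3.44 with 7.97% called higher.

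The width of the distribution did not differ detectably. The distance between the 5th and 95th percentile was 4.87 ± 0.51 (SD, n = 3) in the glands and 4.84 ± 0.26 (SD, n = 7) in IR-7W (difference -0.03, two-sided exact permutation p = 0.933). The mean log2 ratio was higher in IR-7W on all 20 autosomes, by 0.03 on chromosome 13 to 0.14 on chromosome 1. For 14 of the 20 the adjusted p was below 0.05 (two-sided exact permutation test with Benjamini-Hochberg adjustment over 20). Without gland 2, which had the lowest gland mean on all 20, the number was 0, and it was also 0 with normexp, with loess and with only probes above background on all 10 arrays.

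Few differences between the tumor groups passed, and those that did depended on the arrays used. Between IR-7W and IR-3W, 0 probes and 0 runs passed the adjusted threshold (limma), with 5991 probes at an unadjusted p under 0.05. With the arrays scaled to a common spread 135 probes, 130 of them higher in IR-7W, and 27 runs passed, and without IR-7W tumor 7 86 probes and 10 runs did, all higher. IR-3W tumor 1 stood apart, with a distance between the 5th and 95th percentile of 7.60 against 4.47 to 5.21 in the other 6 IR-3W tumors. Without it 0 probes passed (6544 at an unadjusted p under 0.05), but 9 runs were higher and 1 was lower in IR-7W. Between IR-7W and spontaneous tumors 0 probes and 0 runs passed, with 3683 probes at an unadjusted p under 0.05. Against the same 3 glands, the spontaneous tumors gave 18757 called probes (21.0%) and 2424 runs (21.4%), and IR-3W gave 6161 probes (6.89%) and 403 runs (3.56%). Without IR-3W tumor 1 the latter were 8543 probes and 785 runs. These comparisons share the glands, and the difference between those counts was not tested.

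The named runs were chosen on values of IR-7W and the glands, which can favor a distance of IR-7W from the other tumor groups. Of these runs, 0 of 20 differed between IR-7W and IR-3W with all arrays. Without IR-3W tumor 1, H5 and H7 passed, while against spontaneous tumors the adjusted p was 0.859 for each (limma). Over all probes of H5, IR-3W tumor 1 was at 3.47 and the other 6 lay between -0.30 and 0.53, with a difference from IR-7W of 1.91 (adjusted p = 0.0139). In H7 it was at 2.41 and the other 6 lay between -0.46 and 0.38, with a difference of 1.53 (adjusted p = 0.0108). Run H1 stood at 2.43 ± 0.64 in IR-7W, 1.86 ± 1.16 in IR-3W and 2.06 ± 0.97 in spontaneous tumors (SD, n = 7 each). Run L2 stood at 1.83 ± 0.46, 3.43 ± 1.28 and 1.70 ± 0.53 in the same order, with 3.32 ± 0.71 (SD, n = 3) in the glands. Its difference between IR-7W and IR-3W was -1.60 (SE 0.47, adjusted p = 0.298). IR-3W tumor 1 was far above the other 6, which lay between 2.30 and 3.81, and without it the difference was -1.17 (adjusted p = 0.105). Run L3 had -1.51 (SE 0.46, adjusted p = 0.318) and L4 had -1.13 (SE 0.37, adjusted p = 0.365), and without IR-3W tumor 1 these were -1.09 and -0.87 (adjusted p of 0.122 and 0.295). In L5, L8 and L10 all the tumor groups lay low: IR-3W averaged -0.24, -0.07 and -0.34, and IR-7W -0.33, -0.14 and -0.35. At A_45_P03681235, IR-7W averaged 2.00, IR-3W -0.01 and spontaneous tumors 1.70, and the difference between IR-7W and IR-3W of 2.00 had an adjusted p of 0.103.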

How the data were processed

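The authors deposited scanner files with an intensity per spot and channel, from which Agilent Feature Extraction (version 10.7.3.1) had removed the background and spatial trends before a linear, not lowess, dye normalization. The log10 ratios in the deposited scanner files were not used. The deposited log2 ratios of the series matrix (91897 probes) served as an alternative. The log2 of processed Cy5 over Cy3 was computed here, centered on each array's median, and outlier spots (0 to 20 per array of the 10) were left out.

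Probes and run medians were tested with limma 3.58.1 (R 4.3.3) on the 10 arrays with Benjamini-Hochberg adjustment over all 89403 probes or 11323 runs. For means per array the two-sided exact permutation test took all 120 splits. Tables were handled in Python 3.11.15 (pandas 2.3.3, scipy 1.17.1). On simulated data of 89403 probes, of which 200 were changed by 4 SD, the limma step recovered 87 of these, with 8 false calls. The adjustment is stricter where few probes change. This recovery therefore does not carry over to the comparison itself, where 19898 probes were called.

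Named runs were the 10 highest and 10 lowest differences among called runs with 4 or more probes well above background and unsaturated on all 10 arrays, and no overlap between groups. Outside them, the 3 called single probes furthest up and the 3 furthest down that met the same signal rule were named. The groups, lists and tests were chosen with earlier results of these data known. The gene lists and cell type markers could not be counted, since no table used here pairs the probes with genes, so the tissue labels were not checked against marker genes. The alternatives were other values, background corrections, normalizations, probe filters, run definitions, tests and thresholds. They also held blocks for slide, scan day and replicate number, and each array left out. The main tests took IR-7W tumors 1 and 2, which came from the same rat, as separate samples. With these tumors averaged, 19109 probes and 2353 runs were called. The rebuilt LogOdds took the log10 odds of the tail probabilities of a 2-mode mixture fitted to each array, limited to 16, without the study's classes of melting temperature. The methods' t-test was run here on the log2 ratios, not on LogOdds. Normexp used an offset of 50.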

Additional observations from a re-analysis of the deposited data

Results flagged for a closer look

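Among 63 sets of values in the 7 IR-7W tumors that were checked for a single tumor far from the rest by Dixon's test, 4 stood out, and chance gives about 1 in 20. The median log2 ratio of X-chromosome probes was 0.21 in tumor 3 and 2.38 to 3.17 in the others. At A_45_P19694823, tumor 6 was at 2.38 and the others at -0.88 to 0.21. In run L8, tumor 6 was at 0.24 and the others at -0.31 to -0.08. The mean log2 ratio of chromosome 9 was 0.38 in tumor 2 and 0.27 to 0.31 in the others.

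The Cy3 channel, which carries unenriched DNA, held 1 departure in 140 chromosome medians of the tumors that was larger than any in the glands. Given relative to the mean of the glands, the median of chromosome 6 was -0.27 in tumor 6. The 60 gland medians lay between -0.07 and 0.14.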

How the results depend on the processing

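The 26 named runs and probes kept their direction under every alternative computed, but not their size. Of their 604 alternative values 72 lost the threshold, among them all 26 with a block for scan day, 12 with the replicate block and 11 with loess. The gained runs differed by 1.19 to 2.53 with scan day, 1.84 to 2.78 with the replicate block and 0.48 to 1.12 with loess. In the same order, the lost runs differed by -2.69 to -0.86, -1.60 to -0.98 and -0.79 to -0.32. Called probes numbered 4748 with loess, 45332 on the rebuilt LogOdds, 25 with a block for scan day, 0 with the replicate block (25173 at an unadjusted p under 0.05), 7112 by the methods' t-test at an unadjusted p under 0.001 (18420 after Benjamini-Hochberg), 7341 with a difference over 1, and 8666 (without gland 3) to 20417 (without tumor 6) when 1 array was left out. The replicate numbers do not pair the samples (correlations of deviations -0.006 to 0.037). Called runs numbered 1339 with normexp, 467 with loess, 7460 on LogOdds, 0 with a block for scan day, 267 with the replicate block, and 1184 (without gland 3; 1260 without gland 2) to 2657 with 1 array left out. The share of calls that were higher was 51.8% in the series matrix, 24.1% with normexp, 44.9% with loess, 41.0% with quantile, 99.1% on LogOdds, 49.4% with only probes above background, 49.7% with slide as a random block, 28.0% with a scan day block, 48.9% with all 24 arrays and 50.3% to 54.7% with 1 array left out. Between IR-7W and IR-3W the calls were 135 with arrays scaled to a common spread, 2 with all 24 arrays and 0 to 86 (without IR-7W tumor 7) with 1 array left out. Runs passing there numbered 27 with arrays scaled to a common spread and 0 to 10 (without IR-7W tumor 7 or without IR-3W tumor 1) with 1 array left out.

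For the low, middle and high classes the differences were -0.0150, -0.122 and -0.0491 with normexp, -0.0122, 0.0167 and 0.0180 with loess, and 0.0909, -0.0128 and 0.231 ranked on both groups. On the middle class it was -0.0302 with quantile and -0.0496 with only probes above background. On the low class it was 3.07 on LogOdds and -0.0698 ranked on IR-3W. Ranked on gland 1, 2 and 3 with the other glands compared, the low class gave 0.208, 0.284 and 0.235, the middle class 0.00367 for gland 1 and 0.0273 for gland 3, and the high class 0.175, -0.193 and 0.0986. With 1 array left out the low class ranged from -0.165 to -0.110, the middle class from 0.0292 to 0.0521, and the high class from 0.236 to 0.507. The spread differed by -4.00 on LogOdds (exact permutation p = 0.0167) and by -0.30 to 0.20 with 1 array left out. Chromosomes past the threshold numbered 0 with normexp, loess or only probes above background, 4 with quantile and 0 (without gland 2) to 15 with 1 array left out. Stretches of higher runs numbered 0 with normexp, loess, scan day or the replicate block, 361 on LogOdds, 6 with only probes above background and 4 to 15 with 1 array left out. The stretch counts, the run counts between tumor groups, the other rankings and centering on the autosomal median were added after the data had been seen, and the cause of each change was not tested. Signals not above background limit what the array can show for 409 higher and 64 lower probes.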
